A study of Homo sapiens with 4 samples.

Results

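SPP1, which encodes the secreted phosphoprotein osteopontin, was followed here with 9 related genes in KM-H2, an established cell line derived from Hodgkin lymphoma. The set held the 5 genes of the SIBLING cluster on chromosome 4 (SPP1, IBSP, DMP1, MEPE and DSPP) and 5 genes for osteopontin receptors (CD44, ITGAV, ITGB3, ITGA4 and ITGA9). These are 10 of 19775 genes measured, and they were read by 37 of 54613 probe sets. SPP1 was selected on its measured difference between PTPN1 knockdown and non-silencing arrays, in which it was among the highest. That difference is therefore described and not tested, and the other 9 genes were added for their kinship or their binding of osteopontin.

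Total RNA was measured on 4 Affymetrix arrays in 2 groups. The arrays of the knockdown group came from KM-H2 cells given small interfering RNA against PTPN1, a tyrosine phosphatase that acts on JAK kinases. The arrays of the control group came from KM-H2 cells given a non-silencing control. All cells were grown under standard conditions, and their RNA was amplified in the same 2-cycle protocol. Each group held 2 arrays, numbered 1 and 2, which the series calls technical replicates. SDs, SEs and p-values therefore measure the spread between arrays and not between cultures, and 1 cell line cannot stand for other Hodgkin lymphomas.

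The SIBLING proteins (small integrin-binding ligand, N-linked glycoproteins) are acidic, heavily phosphorylated proteins best known from bone and dentin, where they bind mineral and cells. Osteopontin is the family member with the widest range outside bone and is secreted by macrophages, activated T cells and many tumours. It binds integrins through an arginine-glycine-aspartate motif, and through a nearby site that thrombin exposes, and it is also a ligand of CD44. Integrins work as pairs of an alpha and a beta chain, so that one receptor needs transcripts of 2 genes.

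As the SIBLING genes lie side by side but differed in these cells, the windows around their transcription starts are shown for comparison. All are RefSeq sequences of GRCh38.p14 on the plus strand, and each runs from 250 bases before the start to 50 bases after it. The windows are chr4:87975464-87975763 for SPP1, chr4:87799304-87799603 for IBSP, chr4:87650030-87650329 for DMP1, chr4:87832719-87833018 for MEPE and chr4:87608279-87608578 for DSPP. The table held windows for all 5 genes, with 2 for MEPE, of which the one printed was chosen because it resembles its neighbours. Capitals mark matches on either strand to TTTAAA or TATAAA (AT-rich letters of the TATA box kind), to CCAAT and to ACCACA, the core letters bound by RUNX factors.
SPP1: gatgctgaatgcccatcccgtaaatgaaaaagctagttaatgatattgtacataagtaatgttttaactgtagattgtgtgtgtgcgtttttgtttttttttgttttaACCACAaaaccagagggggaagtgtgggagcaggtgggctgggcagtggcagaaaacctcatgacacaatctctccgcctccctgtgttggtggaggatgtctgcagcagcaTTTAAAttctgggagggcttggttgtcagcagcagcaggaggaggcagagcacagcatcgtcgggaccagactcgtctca
IBSP: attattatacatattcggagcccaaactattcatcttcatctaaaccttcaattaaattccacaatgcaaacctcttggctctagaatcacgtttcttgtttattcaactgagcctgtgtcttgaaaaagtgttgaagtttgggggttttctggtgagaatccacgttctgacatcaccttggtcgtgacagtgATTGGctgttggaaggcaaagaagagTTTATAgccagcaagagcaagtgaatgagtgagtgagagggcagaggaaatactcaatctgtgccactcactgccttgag
DMP1: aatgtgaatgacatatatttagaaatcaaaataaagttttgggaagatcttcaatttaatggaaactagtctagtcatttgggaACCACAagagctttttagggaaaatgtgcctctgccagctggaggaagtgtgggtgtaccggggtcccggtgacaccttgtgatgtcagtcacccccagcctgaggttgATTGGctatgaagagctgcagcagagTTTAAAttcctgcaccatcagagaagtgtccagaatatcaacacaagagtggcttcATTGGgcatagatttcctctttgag
MEPE: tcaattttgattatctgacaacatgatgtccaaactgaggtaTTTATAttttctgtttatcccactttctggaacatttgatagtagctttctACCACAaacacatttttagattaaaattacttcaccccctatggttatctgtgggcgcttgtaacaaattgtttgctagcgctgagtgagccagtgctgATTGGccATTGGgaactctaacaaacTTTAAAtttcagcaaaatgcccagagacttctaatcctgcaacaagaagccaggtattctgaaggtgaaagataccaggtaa
DSPP: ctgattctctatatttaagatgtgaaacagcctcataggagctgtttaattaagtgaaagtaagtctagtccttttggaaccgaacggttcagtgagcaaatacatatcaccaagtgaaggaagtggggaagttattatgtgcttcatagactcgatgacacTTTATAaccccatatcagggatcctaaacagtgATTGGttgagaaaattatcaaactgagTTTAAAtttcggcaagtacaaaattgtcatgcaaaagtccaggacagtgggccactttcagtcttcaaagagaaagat

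TTTAAA began at position -30 in SPP1, -31 in DMP1, -32 in MEPE and -28 in DSPP, counted from the start site. IBSP held TTTATA, the reverse complement of TATAAA, at position -30. TTTATA also lay at -208 in MEPE and at -88 in DSPP. TTTAAA occurs in 12.2% and TATAAA in 11.5% of all 35116 start windows. CCAAT, read on the minus strand, lay at -56 in IBSP, -57 in DMP1, -58 and -51 in MEPE and -55 in DSPP, and a second match in DMP1 lay after the start, at 25. The MEPE window that is not printed held TTTAAA at -123 and no match to any of the other letters searched, so that the likeness of MEPE to its neighbours follows from the choice of window. The SPP1 window held no match to CCAAT, which is found in 34.6% of all windows. ACCACA lay at -142 in SPP1, -166 in DMP1 and -157 in MEPE (13.1% of all windows). No window held TGANTCA (7.71% of all windows), the letters of AP-1, or TTCNNNGAA (7.66%), the letters of STAT factors. The TTTAAA and CCAAT letters were added to the search after the sequences had been seen, none of these matches overlaps another, and a match is no proof of binding.

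SPP1 was read by 2 probe sets. The brighter, 209875_s_at, read 7.63 and 8.27 in knockdown arrays 1 and 2, against 5.62 and 5.42 in non-silencing arrays 1 and 2, all in log2 units. Both knockdown arrays stood above both non-silencing arrays, and the knockdown arrays lay further apart than the controls. The means were 7.95 ± 0.45 in the knockdown arrays and 5.52 ± 0.14 in the non-silencing arrays (SD, n = 2 each), a log2 difference of 2.43 or 5.39-fold. In the pair of arrays numbered 1 the difference was 2.01 (4.03-fold), and in the pair numbered 2 it was 2.85 (7.19-fold). Knockdown array 2 was highest, knockdown array 1 next, and the non-silencing arrays, 0.19 apart, lowest. In bulk RNA, more cells with the transcript and more transcript in each cell cannot be told apart.

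The second SPP1 probe set, 1568574_x_at, read 2.88 and 2.90 in the knockdown arrays, against 2.76 and 2.71 in the non-silencing arrays. Its difference was 0.15, and 0.12 and 0.19 within the array numbers. It had the same sign as the brighter probe set but lay far below the arrays' median of about 5.11, in the lowest 2.98% of values of knockdown array 1, where RMA compresses differences. The suffix x marks a probe set whose probes may bind other transcripts too. The size of the SPP1 difference thus rests on 1 probe set.

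**Figure D1:**
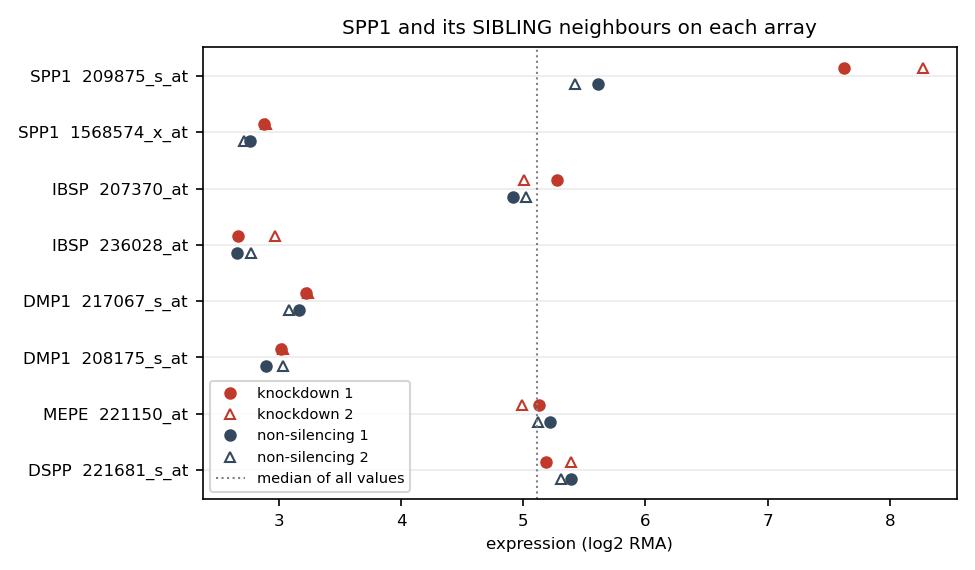
Log2 RMA values of the 8 SIBLING probe sets on each of the 4 arrays, knockdown in red above non-silencing in dark blue, with circles for arrays numbered 1 and open triangles for arrays numbered 2. The brighter SPP1 probe set reads 7.63 and 8.27 in knockdown and 5.62 and 5.42 in non-silencing arrays, while no other probe set differs by as much as 0.2 between the group means.

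The SIBLING neighbours of SPP1 stayed near or below the arrays' median in all 4 arrays, and none of their differences reached 0.2. IBSP, bone sialoprotein, read 5.28 and 5.003 in the knockdown arrays, against 4.92 and 5.02 in the non-silencing arrays, so that the groups overlapped (207370_at, log2 difference 0.17, 95% interval -0.22 to 0.55). MEPE, the matrix extracellular phosphoglycoprotein of bone cells, read 5.13 and 4.99 in the knockdown arrays, against 5.22 and 5.12 in the non-silencing arrays (-0.11, interval -0.45 to 0.22). DSPP, a precursor of dentin proteins, read 5.18 and 5.39 in the knockdown arrays, against 5.39 and 5.31 in the non-silencing arrays (-0.06, interval -0.42 to 0.29). The groups overlapped for MEPE and for DSPP as well.

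DMP1, a dentin matrix protein that regulates mineralisation, lay far below the median at both of its probe sets. Its brighter probe set read 3.22 and 3.24 in the knockdown arrays, against 3.17 and 3.09 in the non-silencing arrays (217067_s_at, 0.10, interval -0.21 to 0.42). Here both knockdown arrays lay just above both non-silencing arrays. The second probe sets of IBSP and DMP1 read between 2.66 and 3.03 on every array. Of the 6 probe sets of these 4 neighbours, 4 had a positive difference, and their median was 0.08, against -0.005 over all probe sets.

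Around the cluster only SPARCL1, a secreted relative of SPARC that lies next to DSPP, differed by more than 0.3 the same way within both array numbers. It read 8.60 and 8.85 in the knockdown arrays, against 8.16 and 8.37 in the non-silencing arrays. The groups did not overlap, and the log2 difference was 0.46 (SE 0.16), with 0.44 and 0.49 within the array numbers, but it did not pass the test over all genes. ABCG2, a drug efflux transporter on the far side of SPP1, read 9.51 and 9.62 in the knockdown arrays, against 9.55 and 9.57 in the non-silencing arrays (0.004). The other 5 measured flanking genes (HSD17B11, NUDT9, PPM1K, HERC6 and HERC5) lay between -0.12 and 0.18. PKD2, HSD17B13 and HERC3 were not analysed here.

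**Figure D2:**
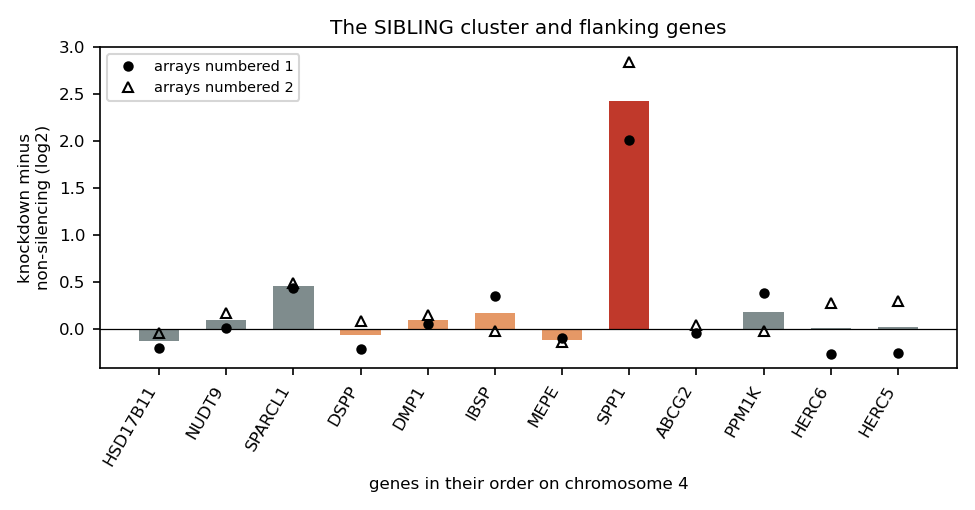
Log2 difference of knockdown minus non-silencing for the brightest probe set of 12 genes in their order on chromosome 4, SPP1 in red, other SIBLING genes in orange and flanking genes in grey. Bars are differences of group means, and circles and triangles are the differences within array numbers 1 and 2; SPP1 stands at 2.43, SPARCL1 at 0.46 and all others between -0.12 and 0.18.

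CD44, the hyaluronan receptor that also binds osteopontin, had 7 of its 13 probe sets above the median in all 4 arrays. Its brightest probe set, 212063_at, read 9.24 and 9.78 in the knockdown arrays, against 9.49 and 10.03 in the non-silencing arrays. The groups overlapped, with a log2 difference of -0.25 (limma SE 0.26, 95% interval -0.91 to 0.42). Within the array numbers the difference was -0.24 and -0.25. The next brightest, 204489_s_at, read 8.02 and 8.40 in the knockdown arrays, against 8.07 and 8.42 in the non-silencing arrays, a difference of -0.04. Over the 13 probe sets the differences ran from -0.25 to 0.16 with a median of -0.04, 5 of them positive and 8 negative. Such probe sets read different stretches and splice forms of the gene.

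ITGAV encodes the alpha V chain, the partner of beta 3 in the classical osteopontin receptor. Its only probe set, 202351_at, read 8.27 and 9.30 in the knockdown arrays, against 8.40 and 9.66 in the non-silencing arrays. The groups overlapped, with a difference of -0.24 and a 95% interval from -1.53 to 1.05. In the pairs numbered 1 and 2 the difference was -0.13 and -0.35. ITGB3, the beta 3 chain, stayed low on all 7 of its probe sets, none of which read above 5.31 on any array. The brightest read 4.93 and 5.12 in the knockdown arrays, against 5.14 and 5.21 in the non-silencing arrays (204628_s_at, -0.15, interval -0.50 to 0.20). Over the 7 probe sets the differences ran from -0.15 to 0.14 with a median of -0.02, 2 of them positive and 5 negative. The mean of all ITGB3 probe sets differed by -0.01. No probe set of ITGB3 lay above the median in all 4 arrays.

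ITGA4, the alpha 4 chain of leukocyte integrins, had 2 of 4 probe sets above the median in all 4 arrays. The brightest, 213416_at, read 7.23 and 7.06 in the knockdown arrays, against 7.21 and 6.95 in the non-silencing arrays (0.06, interval -0.33 to 0.46). All 4 ITGA4 differences were positive, the largest at the dimmer probe set 205885_s_at, which read 5.07 and 4.72 in the knockdown arrays, against 4.63 and 4.45 in the non-silencing arrays. There the groups did not overlap, and the difference was 0.35 (SE 0.17), with 0.44 and 0.26 within the array numbers.

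ITGA9, the alpha 9 chain, which binds the site of osteopontin that thrombin exposes, lay below the median in every array at all 4 probe sets. Its brightest, 206009_at, read 4.45 and 4.35 in the knockdown arrays, against 4.56 and 4.98 in the non-silencing arrays. The groups did not overlap, but the difference of -0.37 (SE 0.18, 95% interval -0.83 to 0.09) was -0.11 in the first pair of arrays and -0.64 in the second. The other 3 probe sets of ITGA9 differed by -0.06 to 0.05.

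**Figure D3:**
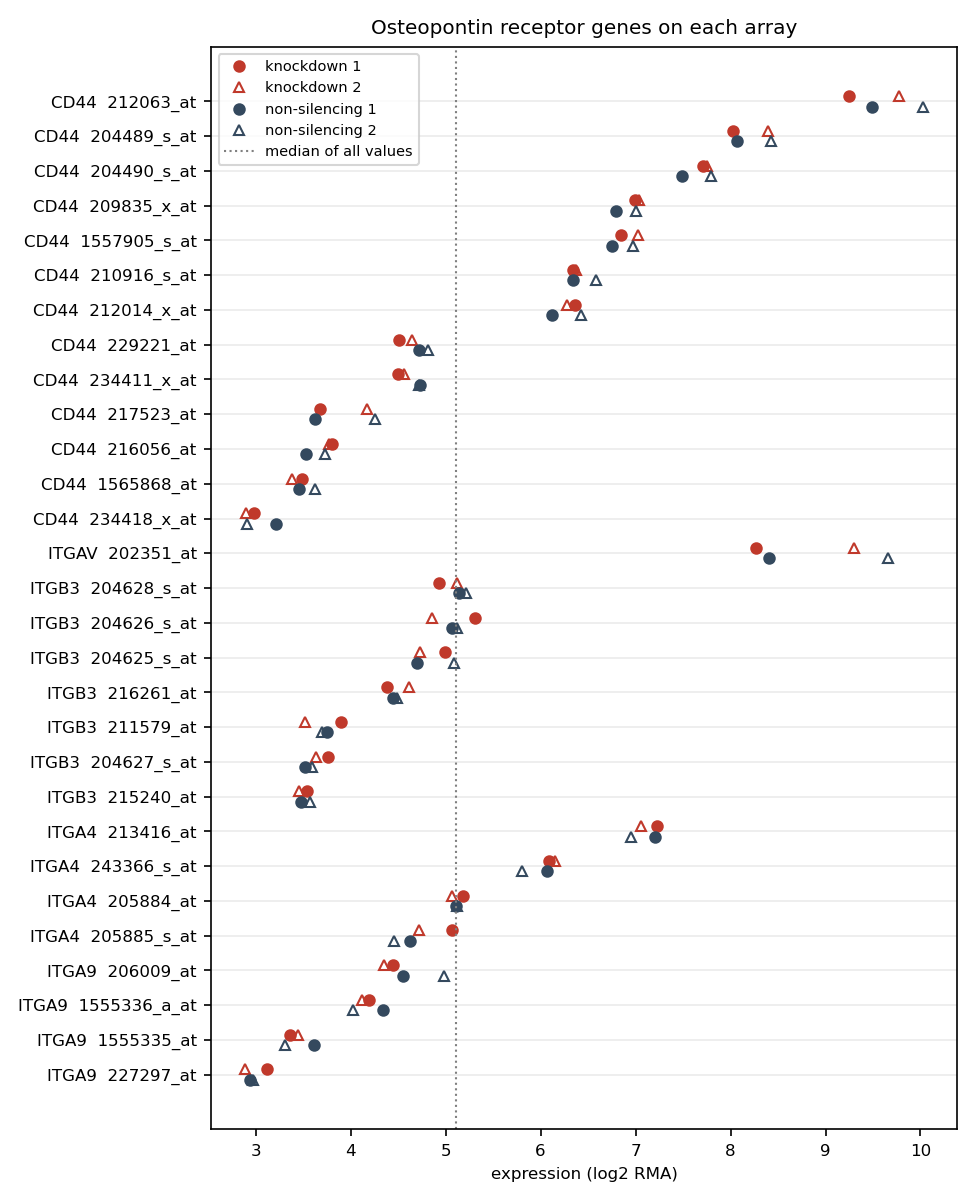
Log2 RMA values of the 29 probe sets of the 5 receptor genes on each array, with the median of all values as a dotted line. CD44, ITGAV and 2 ITGA4 probe sets reach well above that line while ITGB3 and ITGA9 stay near or below it, and the ITGAV and brightest CD44 values are split by array number more than by group.

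In limma, fitted to all 54613 probe sets with Benjamini-Hochberg adjustment, 0 of the 35 probe sets of the 9 genes other than SPP1 passed an adjusted p of 0.05, where 0% of all probe sets did. At an unadjusted p under 0.05 there were also 0 of these 35, against 2.5% of all probe sets. Knockdown lay wholly above non-silencing at 5 of the 35 (13.4% of all probe sets) and wholly below at 4 (15.3% of all). A difference of at least 2-fold upwards was seen at 1 of the 37 probe sets, the SPP1 one, and at 0.275% of all probe sets, and 2-fold downwards at 0 of them and 0.0952% of all. Since the members were chosen with this contrast in view, these counts are descriptions. For the brightest probe set of each of the 9 genes other than SPP1, the 95% interval left out a 2-fold difference in either direction, except for ITGAV, where it did not. The fit had no term for array number, and within the numbers ITGAV differed by -0.13 and -0.35. All these intervals concern the measured signal and the spread between arrays. RMA compresses differences at dim probe sets such as that of DMP1, so that a 2-fold difference in such transcripts is not excluded.

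**Figure D4:**
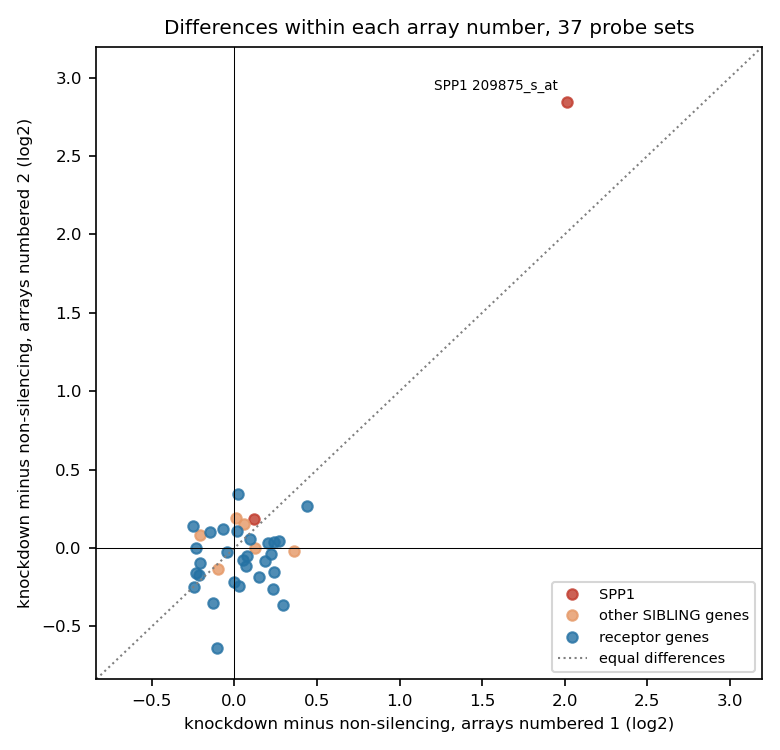
Knockdown minus non-silencing within the pair numbered 1 (horizontal) and within the pair numbered 2 (vertical), in log2 units, for 37 probe sets. The brighter SPP1 probe set lies at 2.01 and 2.85, and all others lie between -0.64 and 0.44 on both axes.

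The ITGAV probe set and 2 of the 13 CD44 probe sets differed between array numbers, a contrast that played no part in the choice of genes. In a limma fit with terms for group and number, ITGAV averaged 9.48 in the arrays numbered 2 and 8.34 in those numbered 1. The difference of 1.14 (SE 0.12) was 1.03 in the knockdown pair and 1.25 in the non-silencing pair, and it passed (adjusted p = 0.00501). CD44 averaged 9.90 in the arrays numbered 2 and 9.36 in those numbered 1 at 212063_at, a difference of 0.54 (SE 0.11, limma adjusted p = 0.0325). At the dim probe set 217523_at CD44 differed by 0.56 (SE 0.12, limma adjusted p = 0.0303). In all, 3 of the 37 probe sets passed as higher in the arrays numbered 2, against 4.83% of all probe sets. As lower, 0 passed, against 3.26% of all. Of the 13 CD44 probe sets 8 were higher in number 2 in both groups, as were 29.2% of all probe sets. The 13 CD44 differences between array numbers ran from -0.20 to 0.56 with a median of 0.12. The brighter SPP1 probe set moved by 0.64 in the knockdown pair and by -0.19 in the non-silencing pair (0.23 on average, limma adjusted p = 0.555).

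**Figure D5:**
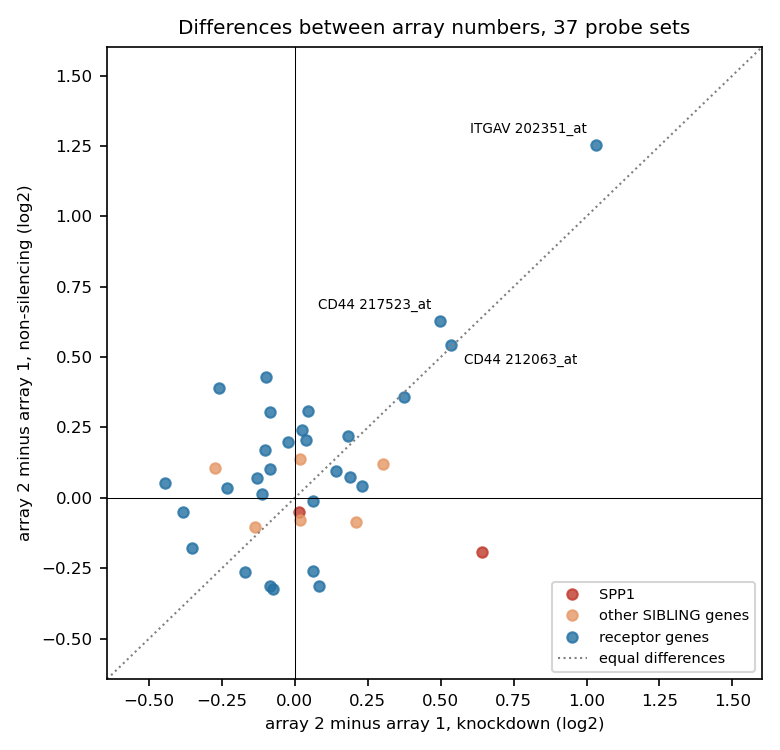
Array 2 minus array 1 in the knockdown pair (horizontal) and in the non-silencing pair (vertical), in log2 units, for 37 probe sets. ITGAV lies at 1.03 and 1.25 and the labelled CD44 probe sets between 0.50 and 0.63 on both axes, close to the line of equal differences, whereas the brighter SPP1 probe set lies at 0.64 and -0.19.

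The arrays themselves had medians of 5.10 to 5.12. The brightest of 4 PTPN1 probe sets read 7.002 and 7.36 in the knockdown arrays, against 8.16 and 8.40 in the non-silencing arrays. At that probe set 46.8% of the signal was left, and the others are not given here. Other values moved with array number or group. The difference between 3' and 5' actin control probe sets was 0.969 and 0.972 in the arrays numbered 2, against 1.33 and 1.31 in those numbered 1, and the 18S ribosomal RNA controls averaged 12.4 and 12.2 in the knockdown arrays, against 11.9 and 11.7 in the non-silencing arrays. The part of either in the results on SPP1, ITGAV and CD44 was not tested.

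All 8 marker genes of Hodgkin cells, among them TNFRSF8 (CD30) and IRF4, were above the median in every array. Their differences were all positive (0.09 to 0.97), where 9522 of all 19775 genes had a positive one. Of the 8, 0 passed in limma, where 0% of all genes did, and 1 had an unadjusted p under 0.05 (2.57% of all genes). CCL17, a chemokine secreted by Hodgkin cells, was the only marker gene of any list to differ by 0.3 or more the same way within both array numbers. It read 7.25 and 6.70 in the knockdown arrays, against 5.86 and 6.16 in the non-silencing arrays, and the groups did not overlap (0.97, SE 0.23, with 1.39 and 0.55 within the array numbers). The other markers given with values below were named after their values had been seen. Markers of other cells in which SPP1 is abundant were set beside it. Of 9 measured macrophage markers, 5 had a positive and 4 a negative difference, with a median of 0.03 (-0.17 to 1.30), and their summed linear signal was 472 to 515 in the knockdown arrays, against 408 to 486 in the non-silencing arrays. Of the 9, 4 (CD14, CSF1R, MARCO and TREM2) were above the median in every array. Another 4 (CD163, MRC1, C1QA and C1QB) were below it in every array. CSF1R read 6.91 and 6.88 in the knockdown arrays, against 7.05 and 7.08 in the non-silencing arrays, and C1QA and C1QB read below 5 on every array. CD14, a lipopolysaccharide co-receptor of monocytes, was above the median in every array and read 7.63 and 6.51 in the knockdown arrays, against 7.28 and 6.21 in the non-silencing arrays. Its groups overlapped, with a difference of 0.32 (0.36 and 0.29 within the array numbers). MRC1, the macrophage mannose receptor, was below the median in every array, but its groups did not overlap (0.28, with 0.27 and 0.28 within the array numbers). GPNMB, a glycoprotein of macrophages and osteoclasts, read 3.92 and 6.24 in the knockdown arrays, against 3.66 and 3.91 in the non-silencing arrays. It was thus high in knockdown array 2 only, with differences of 0.26 and 2.34 within the array numbers. All 5 measured osteoblast markers had negative differences (-0.48 to -0.02), where 10253 of all 19775 genes had a negative one. The summed signal of the 5 markers was 477 to 964 in the knockdown arrays and 750 to 1119 in the non-silencing arrays. Of these only COL1A1, a collagen chain, was above the median, at 8.63 and 9.78 in the knockdown arrays, against 9.36 and 10.01 in the non-silencing arrays, and the other 4 were below it in every array. COL1A1 was also higher in the arrays numbered 2, by 0.90 (limma adjusted p = 0.0233). Lower there were CD14 (-1.10, limma adjusted p = 0.0110), TNFRSF8 (-0.82, limma adjusted p = 0.0210) and IRF4 (-0.49, limma adjusted p = 0.0399). Of all genes, 9.85% passed between the array numbers. The 3 osteoclast markers measured were below the median in every array, with differences from -0.20 to 0.38. In limma 1 of them had an unadjusted p under 0.05 (2.57% of all genes). DCSTAMP, a protein of osteoclast fusion, read 4.32 and 4.33 in the knockdown arrays, against 3.83 and 4.07 in the non-silencing arrays. Its groups did not overlap, with a difference of 0.38, while CTSK and CALCR differed by -0.002 and -0.20. Among 5 epithelial markers the differences ran from -0.08 to 0.07, and among 4 B cell markers from -0.42 to 0.15. Apart from these values, the part of other cells in the SPP1 result was not tested.

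Genes of 7 further lists, called pathway genes below, were counted over the brightest probe set of each gene. The 69 measured held 7 genes that merely flank the SIBLING cluster. Another 10 belong to the secreted calcium-binding phosphoproteins, a wider family than the SIBLING genes. The median difference of all 19775 genes was -0.01. In limma 0 of 69 measured pathway genes passed in either direction where 0% of all genes did, and 4 had an unadjusted p under 0.05 (2.57% of all genes). Of the 69, 34 had a positive and 35 a negative difference. A difference of 0.3 or more the same way within both array numbers was seen upwards for 3 of the 69 (1.98% of all genes). Downwards it was seen for 2 (1.83% of all). Those upwards were MMP12, the flanking gene SPARCL1, and FDCSP, which was itself picked for this contrast. Between the array numbers 9 of the 69 passed in limma, 7 higher and 2 lower in number 2, where 9.85% of all genes did.

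Among further integrin chains that can bind osteopontin, the median difference of 7 genes was -0.002. ITGB1, the common beta 1 chain, read 11.11 and 11.62 in the knockdown arrays, against 11.50 and 11.95 in the non-silencing arrays. Its groups overlapped, with a difference of -0.36 (SE 0.24) that was -0.39 and -0.34 within the array numbers. Among enzymes that cleave or modify osteopontin, the median of 12 genes was 0.07. MMP12, the macrophage elastase, read 13.00 and 12.50 in the knockdown arrays, against 12.30 and 12.15 in the non-silencing arrays. The groups did not overlap, and the difference was 0.52 (SE 0.20). PHEX, a membrane peptidase of bone cells, read 5.98 and 7.29 in the knockdown arrays, against 6.33 and 7.89 in the non-silencing arrays, so that the groups overlapped (-0.48, SE 0.65).

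Of 10 transcription factor genes known to act on SPP1, 7 had a positive difference, with a median of 0.10 (-0.10 to 0.38). None reached 0.3 within both array numbers, and 1 had an unadjusted p under 0.05 in limma (2.57% of all genes). JUN, a subunit of AP-1, read 9.29 and 9.34 in the knockdown arrays, against 9.05 and 8.92 in the non-silencing arrays. Its groups did not overlap, and the difference was 0.33 (SE 0.13), with 0.24 and 0.42 within the array numbers. JUN and RUNX2 were named after their values had been seen. RUNX2, the master regulator of bone formation, read 8.23 and 8.84 in the knockdown arrays, against 8.40 and 8.49 in the non-silencing arrays (0.09). The 12 signalling and linker genes had a median of -0.02 (-0.25 to 0.23), and the 11 genes for other ligands of these receptors, such as fibronectin and the hyaluronan synthases, had a median of -0.03 (-0.24 to 0.16).

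The SIBLING genes belong to a larger family of secreted calcium-binding phosphoproteins that also holds milk caseins and salivary and enamel proteins. FDCSP is the member that stood out there, at 10.83 and 9.84 in the knockdown arrays, against 5.59 and 4.85 in the non-silencing arrays (log2 difference 5.11). The other 9 measured genes of that family differed by -0.30 to 0.09. FDCSP and SPP1 were both picked for their difference, so that their likeness is no independent result.

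Genes whose 4 array values ran most like those of SPP1 were found by Euclidean distance between values centred on their own means. NOL4 (distance 0.205) read 6.29 and 6.78 in the knockdown arrays, against 4.02 and 4.04 in the non-silencing arrays. VGLL3 (0.223), a cofactor of TEAD transcription factors, read 5.50 and 6.26 in the knockdown arrays, against 3.56 and 3.60 in the non-silencing arrays. ABHD10 (0.235), AFF3 (0.255), JAZF1 (0.323) and the non-coding TBX5-AS1 (0.493) followed. All 6 differed by 2.30 to 2.54, and with 4 arrays such a likeness says little more than that. A second probe set gave 2.26 for NOL4 and 2.23 for ABHD10, but 1.36 for JAZF1 and 0.63 for VGLL3. The 5 others of AFF3 gave -0.12 to 0.05 and those of TBX5-AS1 -0.18 to 2.10, so that not all probe sets of these genes ran like SPP1.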

How the data were processed

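The deposited values are log2 expression values that the authors made with RMA, per the submitters' processing notes; the software and its version are not stated there. RMA gives all arrays nearly the same distribution. Of 54675 probe sets, 62 array controls were left out of the fits, and 41091 of the rest had 1 gene symbol, 1801 several and 11721 none. Symbols were looked up by gene identifier in RefSeq (GRCh38.p14), which lacked 54 of them. Each other gene was represented by its brightest probe set. Groups were compared in limma 3.58.1 under R 4.3.3 (lmFit, eBayes, two-sided, Benjamini-Hochberg over all probe sets, threshold 0.05), without covariates. Array numbers were compared in a fit with both terms. The fits were tested on simulated data.

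The members, the gene lists and the rule for named genes were chosen with earlier results of these data known. The rule named, per list, up to 4 genes that differed by 0.3 or more the same way within both array numbers, and the 6 genes most like SPP1. Genes named outside it were chosen after their values were seen. Alternatives were repeated quantile normalization, centring, a filter on dim probe sets, 1 probe set or the mean per gene, another variance model, a replicate block and leaving out each array. The number of arrays limits the precision.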

Additional observations from a re-analysis of the deposited data

How the results depend on the processing

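The SPP1 difference was 2.42 under repeated quantile normalization and 2.45 under centring. The filter and the brightest probe set per gene kept the same SPP1 probe set with the same values, so they could not change its 2.43. Without 1 array the SPP1 difference was 2.11 to 2.75. As the mean of both SPP1 probe sets, the dimmer of which differed by 0.15, it was 1.29. Without 1 array ITGAV ranged from -0.87 to 0.38 and CD44 from -0.52 to 0.02, where the array numbers were no longer balanced between the groups. The array number differences of ITGAV and of the 2 CD44 probe sets that passed did so in each alternative that kept the probe set.

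The count of probe sets passing between the groups was 0 in limma except 164 with the array number as a replicate block, and 0 to 1 without 1 array (1 without non-silencing array 1). No label says that a number marks a common batch, and the deviations of same-numbered arrays correlated at 0.593. With the block 0 of the 35 probe sets other than those of SPP1 passed. Between array numbers 1948 genes passed with the brightest probe set, 1721 with gene means, and 7933 probe sets with the other variance model.

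Fewer features were tested with the filter, the brightest probe set and gene means, and these counts fell as follows. The last 2 settings held the same 19775 genes, so that the number of features cannot account for differences between them. At least 2-fold higher were 74 with the filter, 85 with the brightest probe set and 54 with gene means, and 32 and 18 were 2-fold lower with these last 2. Knockdown lay wholly above at 3450, 2458 and 2608 and wholly below at 3275, 2968 and 2893. Without 1 array 190 to 250 probe sets were 2-fold higher and 23 to 301 lower, and 15537 to 19524 lay wholly above and 17356 to 18953 wholly below, since 3 arrays separate more easily than 4. Values of dim probe sets such as those of DMP1 and ITGA9 limit what can be seen there.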

Other observations

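Between the array numbers 9 of the 69 pathway genes passed in the limma fit with both terms, a share near that over all genes (9.85%), so that the values below are no result about the pathway. ITGB1, VCL, RDX and VCAM1 are integrin, linker or ligand genes, ETS1 and MYC are transcription factor genes, MMP9 and PHEX encode enzymes, and FDCSP is a calcium-binding phosphoprotein gene. VCAM1, the endothelial ligand of alpha 4 integrins, read 10.23 and 10.21 in the arrays numbered 2, against 9.24 and 9.46 in those numbered 1 (knockdown before non-silencing; difference 0.87, limma adjusted p = 0.0164). RDX, which links CD44 to actin, read 11.14 and 11.13 in the arrays numbered 2, against 10.29 and 10.32 in those numbered 1 (0.83, limma adjusted p = 0.0151).

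PHEX read 7.29 and 7.89 in the arrays numbered 2, against 5.98 and 6.33 in those numbered 1 (1.43, limma adjusted p = 0.00788). ITGB1, MMP9, ETS1 and VCL were higher in number 2 by 0.46 to 0.49. MYC (-1.02, limma adjusted p = 0.0169) and FDCSP (-0.87, limma adjusted p = 0.0169) were lower there. The actin 3' to 5' difference also moved with array number, and its part in these values was not tested.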
